A study of Homo sapiens with 70 samples.

Results

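The 42 genes described here encode ribosome biogenesis factors, the proteins that make and process ribosomal RNA and assemble the ribosomal subunits. They were chosen by gene symbol, and all 42 were found among the 20090 gene symbols of the authors' deposited tables, each with 1 transcript that the authors marked as its representative. Hep3B and Huh7 are established human hepatocellular carcinoma lines, and poly-A RNA was sequenced after 24 h of treatment. The drugs were GW3965, which activates the liver X receptors and through them sterol efflux genes, and sorafenib, an inhibitor of RAF and receptor tyrosine kinases. In Hep3B the groups were 5 µM GW3965, 2 µM sorafenib, both drugs at these doses, and DMSO, with 9 libraries each. In Huh7 the groups were labelled GW3965 (8 libraries), sorafenib (9), both (9) and DMSO (8), at the same doses, which makes 70 libraries in all. Within each line the authors compared every drug group with DMSO in edgeR, and the values are their log2 fold changes (drug over DMSO), each with an FDR. Values per library were not analysed here, so neither depth nor the spread between libraries is known. Separate cultures are not named in the labels, and the p-values measure only the spread between libraries, which may be technical.

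The 2 single-drug groups of Huh7 went against their labels on genes that mark the drugs. ABCG1, a sterol efflux transporter induced by liver X receptors, had log2 fold changes in the authors' deposited tables of 0.75 in Huh7 labelled GW3965 and 3.82 in Huh7 labelled sorafenib, beside 5.99 in Hep3B with GW3965 and 0.59 in Hep3B with sorafenib. DUSP6, a phosphatase induced by ERK signalling, had -1.70 in Huh7 labelled GW3965 and -0.02 in Huh7 labelled sorafenib in the authors' deposited tables, beside 0.33 in Hep3B with GW3965 and -2.40 in Hep3B with sorafenib. ABCA1 and SREBF1, listed for the same check, had 0.28 and -0.07 in Huh7 labelled GW3965 and 1.30 and 1.63 in Huh7 labelled sorafenib. SPRY4 and ETV4, also listed, had -1.67 and -1.24 in Huh7 labelled GW3965 and 0.11 and 0.13 in Huh7 labelled sorafenib. These Huh7 groups are therefore called "labelled GW3965" and "labelled sorafenib" throughout, and directions drawn from them hold for the groups as labelled. The hepatocyte markers were at high levels in both lines, with mean log2 CPM of 4.74 to 13.07 over the 11 markers in the Hep3B GW3965 table. The 7 markers of blood, stromal and endothelial cells summed to 13.5 CPM with both drugs in Hep3B and 16.6 CPM with DMSO, and to 54.5 CPM with both drugs in Huh7 and 67.4 CPM with DMSO. COL1A2 made up most of the Huh7 sum, and with both drugs in Huh7 CD68 (0.80), COL3A1 (0.82) and VWF (1.16) were called higher and PECAM1 (-1.76) lower in the authors' deposited table. The hepatocyte markers summed to 11445 CPM with both drugs in Hep3B against 19877 CPM with DMSO, and to 12953 CPM with both drugs in Huh7 against 22348 CPM with DMSO. They summed to 15445 CPM with sorafenib in Hep3B against 19913 CPM with DMSO, a ratio of 0.776, and to 21695 CPM in Huh7 labelled GW3965 against 23033 CPM with DMSO, a ratio of 0.942. The 11 markers did not move together in these 2 groups. In Hep3B with sorafenib 5 were called lower and 2 higher, where 27.9% and 23.6% of all genes at 2 CPM or more were. In Huh7 labelled GW3965, 3 were called lower and 3 higher, where 17.8% and 13.6% of those genes were. Whether these changes in abundant liver transcripts bear on the members' CPM was not tested.

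Ribosome production starts in the nucleolus, where RNA polymerase I transcribes a long precursor of the ribosomal RNAs. Small nucleolar ribonucleoproteins modify this precursor, and successive sets of helicases, GTPases and scaffold proteins fold and cut it while ribosomal proteins bind. The genes of these factors are known as targets of MYC, which binds a DNA motif called the E-box, and the demand for ribosomes in growing cancer cells is tied to growth factor signalling through ERK and mTOR.

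Most of the 42 members were lower in Hep3B with sorafenib and in Huh7 labelled GW3965, and few differed from DMSO in the other single-drug groups. A gene was counted as called when the edgeR FDR of its representative transcript was under 0.05 in the authors' deposited table. In Huh7 labelled GW3965, 40 of 42 members were called lower and 0 higher, where 17.8% of all genes at a mean of 2 CPM or more were called lower and 13.6% higher. Their median log2 fold change was -0.46, against -0.04 over all genes at 2 CPM or more in the authors' deposited table. NOC4L and DDX56 were the members that missed the threshold there, with -0.19 and -0.22 in the authors' deposited table. In Hep3B with sorafenib 27 members were called lower and WDR74 alone was called higher, against a background of 27.9% lower and 23.6% higher. The median of the members was -0.29 and that of all genes at 2 CPM or more was -0.03 in the authors' deposited table. In bulk RNA, a change in the make-up of the cell population and a change of RNA per cell cannot be told apart.

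With both drugs the members were called in both directions in Hep3B and mostly lower in Huh7. In Hep3B with both drugs 12 members were called lower and 17 higher, against a background of 35.4% lower and 36.7% higher, so the shares of members called, 28.6% and 40.5%, lay near those of all genes. In Huh7 with both drugs 16 members were called lower and 3 higher (NPM1, WDR43 and WDR74), against a background of 26.1% lower and 35.5% higher. The median log2 fold change of the members in the authors' deposited tables was 0.09 in Hep3B and -0.11 in Huh7 with both drugs, and that of all genes at 2 CPM or more was 0.01 and 0.07. GW3965 in Hep3B was followed by 3 calls, all higher (DDX21, TSR1 and NOP2), and 0 lower, against a background of 7.4% higher and 3.82% lower. In Huh7 labelled sorafenib 0 members were called in either direction by edgeR, against a background of 2% higher and 1.32% lower, with a range of -0.24 to 0.19 in the authors' deposited table. At an unadjusted edgeR p under 0.05, 3 members were lower and 0 higher in Huh7 labelled sorafenib, 1 was lower and 11 higher in Hep3B with GW3965, and 0 were higher in Huh7 labelled GW3965.

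**Figure D1:**
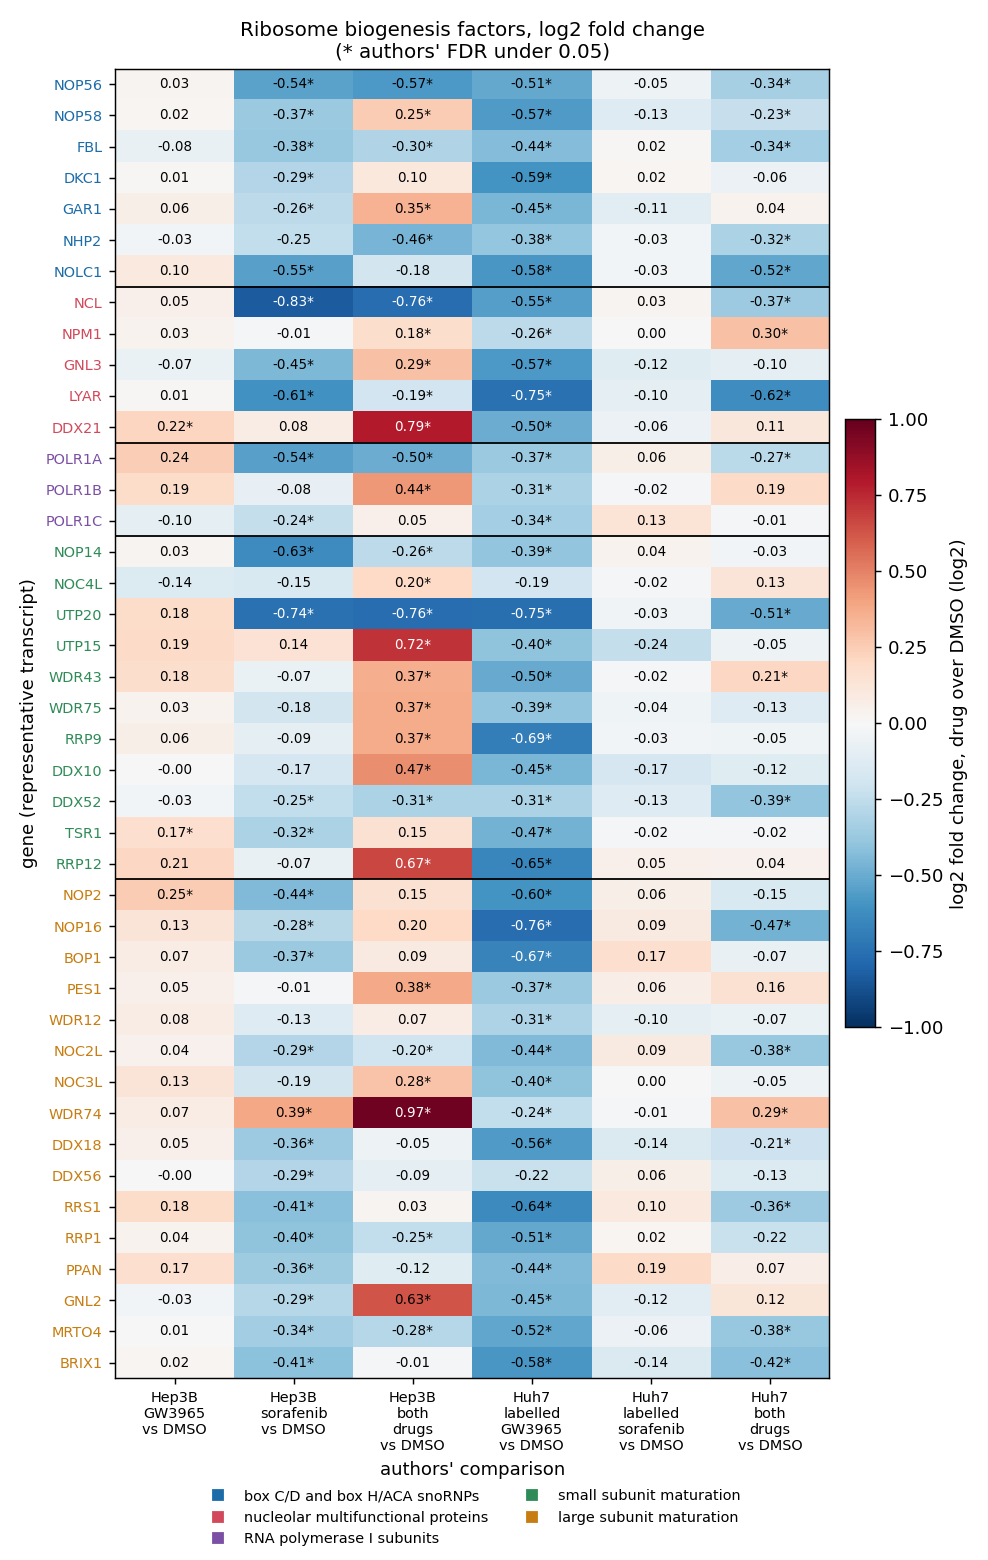
Drug over DMSO on the log2 scale (colour and number) for each of the 42 ribosome biogenesis factors in the authors' 6 comparisons, grouped by role, with an asterisk where the edgeR FDR was under 0.05. The columns for Hep3B sorafenib and Huh7 labelled GW3965 are mostly blue (27 and 40 members called lower), and the column for Hep3B both drugs holds blue and red members (12 lower and 17 higher).

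**Figure D2:**
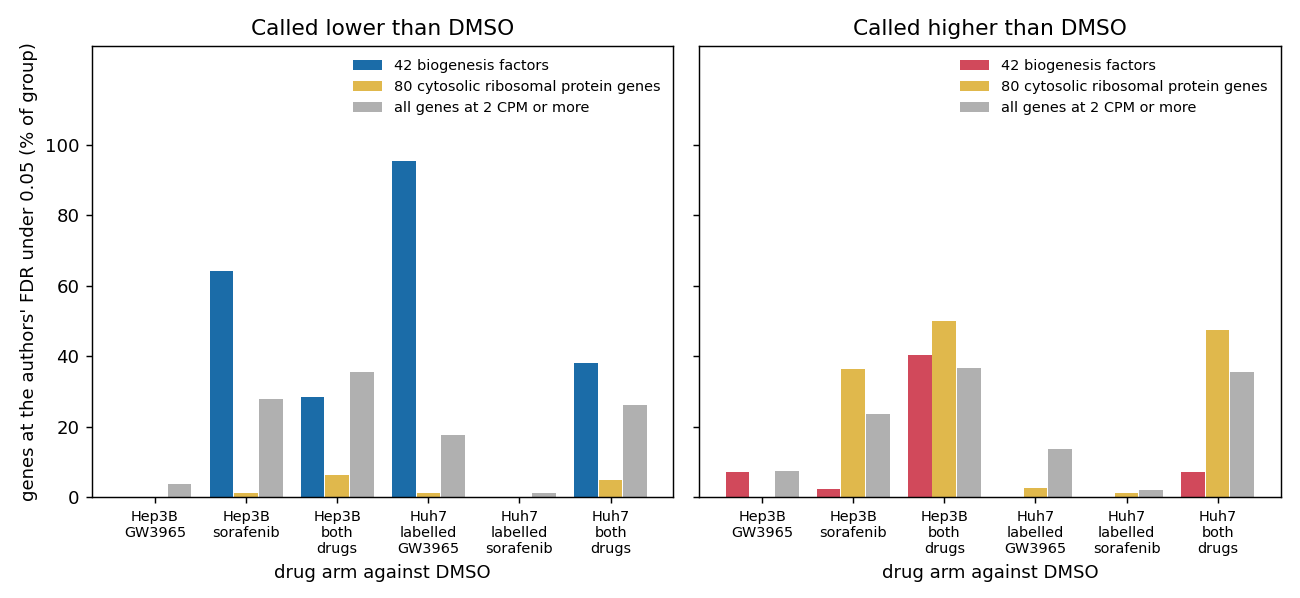
Share of genes called lower (left) and higher (right) than DMSO at edgeR FDR under 0.05 in each drug group, for the 42 biogenesis factors, the 80 cytosolic ribosomal protein genes and all genes at 2 CPM or more (bars, in percent). The biogenesis factors reached 95.2% called lower in Huh7 labelled GW3965 and 64.3% in Hep3B sorafenib, where ribosomal protein genes were at 1.25% in both.

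The summed level of the members, computed from the deposited means and fold changes, shows the same 2 groups at the bottom. It was 2441 CPM in Huh7 labelled GW3965 against 3416 CPM with DMSO, a ratio of 0.715, and 2002 CPM in Hep3B with sorafenib against 2615 CPM with DMSO, a ratio of 0.765. With both drugs it was 2993 CPM in Huh7 against 3339 CPM with DMSO, and 2488 CPM in Hep3B against 2609 CPM with DMSO, ratios of 0.896 and 0.954. NCL, the gene of nucleolin, made up 22.6% of the members' sum in Hep3B with DMSO, and without it the ratio with both drugs in Hep3B was 1.06. The sum was 2581 CPM in Hep3B with GW3965 against 2473 CPM with DMSO, and 3396 CPM in Huh7 labelled sorafenib against 3417 CPM with DMSO. These sums carry no error, since the tables hold none. The DMSO level of a line was computed anew for each comparison, and the CPM scales of the comparisons differ slightly. Each level is therefore set only against DMSO of the same comparison.

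The members with the lowest and the highest fold changes with both drugs in Hep3B are shown with the start of their genes. Among members with a promoter entry, NCL and UTP20, a scaffold protein of the small subunit processome, were the lowest, at -0.76 each in the authors' deposited table. DDX21, an RNA helicase of ribosomal RNA transcription and processing, and WDR74, a factor of large subunit maturation, were the highest, at 0.79 and 0.97 in the authors' deposited table. The sequences are RefSeq promoter windows on GRCh38.p14, from 250 bases before the annotated start to 50 bases from it, with the start at position 251, printed 5′ to 3′ on the strand of the gene. Capitals mark the E-box CACGTG and the motif CCGGAAGT, which factors of the ETS family bind. The fold changes themselves rest on hg19 or GRCh37 gene models, per the submitters' processing notes, and no coordinates were converted. DDX21 and WDR74 have 2 RefSeq entries each. For DDX21 both hold a motif and both are shown, and for WDR74 the entry with a motif is shown.
NCL, chr2:231464435-231464734, minus strand: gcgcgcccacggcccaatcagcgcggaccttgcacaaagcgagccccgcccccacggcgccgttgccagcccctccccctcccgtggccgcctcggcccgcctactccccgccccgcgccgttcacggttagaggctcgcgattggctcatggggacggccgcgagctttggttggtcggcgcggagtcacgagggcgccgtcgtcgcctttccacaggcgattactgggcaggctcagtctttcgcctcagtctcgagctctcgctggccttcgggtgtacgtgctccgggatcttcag
UTP20, chr12:101279855-101280154, plus strand: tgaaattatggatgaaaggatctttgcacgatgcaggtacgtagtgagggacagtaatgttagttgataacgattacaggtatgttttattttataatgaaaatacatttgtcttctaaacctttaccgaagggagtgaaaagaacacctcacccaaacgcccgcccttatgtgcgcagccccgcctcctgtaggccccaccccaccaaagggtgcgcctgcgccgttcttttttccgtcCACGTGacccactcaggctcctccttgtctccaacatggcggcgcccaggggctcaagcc
DDX21, chr10:68955920-68956219, plus strand: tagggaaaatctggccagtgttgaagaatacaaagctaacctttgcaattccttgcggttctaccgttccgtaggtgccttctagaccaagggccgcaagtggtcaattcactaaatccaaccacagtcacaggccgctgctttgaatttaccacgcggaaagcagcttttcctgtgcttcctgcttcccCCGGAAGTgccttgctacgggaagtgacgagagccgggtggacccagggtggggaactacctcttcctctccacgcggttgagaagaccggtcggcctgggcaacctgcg
DDX21, chr10:68956397-68956696, plus strand: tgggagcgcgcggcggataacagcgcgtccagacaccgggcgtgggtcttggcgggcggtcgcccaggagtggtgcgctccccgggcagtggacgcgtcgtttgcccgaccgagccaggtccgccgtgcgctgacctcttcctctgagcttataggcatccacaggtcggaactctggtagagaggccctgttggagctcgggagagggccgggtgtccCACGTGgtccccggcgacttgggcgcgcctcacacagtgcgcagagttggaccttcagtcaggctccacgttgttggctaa
WDR74, chr11:62839541-62839840, minus strand: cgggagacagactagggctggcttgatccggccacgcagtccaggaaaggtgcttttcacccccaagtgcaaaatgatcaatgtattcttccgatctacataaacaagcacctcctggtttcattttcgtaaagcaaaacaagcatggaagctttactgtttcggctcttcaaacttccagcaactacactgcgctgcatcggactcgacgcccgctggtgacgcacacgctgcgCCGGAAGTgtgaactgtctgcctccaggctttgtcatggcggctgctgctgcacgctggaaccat
The window of UTP20 holds an E-box at position 241, and 1 of the windows of DDX21 holds one at position 220. The other window of DDX21 and the window of WDR74 shown hold the ETS motif, at positions 191 and 236, and the window of NCL and the other entry of WDR74 hold neither motif. So members that were low and members that were high with both drugs in Hep3B both include a gene with an E-box in this window.

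Of the 42 members, 35 had a promoter entry, and both strands were searched for the 2 motifs, which do not overlap each other in letters. CACGTG was found in 14 of the 35 members (40%), in 12.9% of 8321 other genes at 2 CPM or more, and in 8.77% of all 27305 genes with an entry. The members with it were FBL, GAR1, GNL3, LYAR, DDX21, NOP14, UTP20, WDR43, RRP9, NOP2, PES1, NOC3L, GNL2 and MRTO4. CCGGAAGT was found in 9 of the 35 members (25.7%), in 10.6% of the other genes at 2 CPM or more, and in 4.95% of all genes with an entry. With both drugs in Hep3B, 8 of the 14 members with an E-box were called higher and 5 lower, and 7 of the 21 without one were called higher and 6 lower. In Hep3B with sorafenib 9 of the 14 members with an E-box and 12 of the 21 without one were called lower. A match of letters is not a binding site, and no test was made of these counts.

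Proteins of the small nucleolar ribonucleoproteins, which guide methylation and pseudouridylation of ribosomal RNA, were called lower in most cases in 3 of the 6 comparisons. All 7 were lower in Huh7 labelled GW3965, 6 in Hep3B with sorafenib, and 5 in Huh7 with both drugs, where 0 were higher. Of all genes at 2 CPM or more, 17.8%, 27.9% and 26.1% were called lower in these 3 groups. With both drugs in Hep3B 3 were lower and 2 higher, 42.9% and 28.6% beside 35.4% and 36.7% of those genes. In Hep3B with GW3965 and in Huh7 labelled sorafenib 0 of the 7 were called. The background there was 3.82% lower and 7.4% higher in Hep3B, and 1.32% and 2% in Huh7. NOP56, a core protein of the box C/D particles, stood at 82.5 CPM with both drugs in Hep3B against 123 CPM with DMSO, a log2 fold change of -0.57 in the authors' deposited table (edgeR FDR = 8.22e-19). It stood at 189 CPM with both drugs in Huh7 against 238 CPM with DMSO (-0.34 in the authors' deposited table, edgeR FDR = 7.1e-06). FBL, the methyltransferase of the same particles, had -0.30 in Hep3B and -0.34 in Huh7 with both drugs in the authors' deposited tables (edgeR FDR = 0.000188 and 0.00148).

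NOP58, their partner in the box C/D particles, was called in opposite directions in Hep3B. It was at 55.1 CPM with sorafenib in Hep3B against 71.4 CPM with DMSO (log2 fold change -0.37 in the authors' deposited table, edgeR FDR = 8.56e-05). With both drugs it was at 84.9 CPM in Hep3B against 71.2 CPM with DMSO (0.25 in the authors' deposited table, edgeR FDR = 0.00149), and at 59.8 CPM in Huh7 against 70.1 CPM with DMSO (-0.23, edgeR FDR = 0.0359). NOP58 was thus the member called higher with both drugs in Hep3B and lower with both drugs in Huh7.

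Among the box H/ACA proteins, which carry out pseudouridylation, the changes were also uneven. DKC1, the pseudouridine synthase, was at 56.4 CPM in Huh7 labelled GW3965 against 85.1 CPM with DMSO (-0.59 in the authors' deposited table, edgeR FDR = 3.8e-07), and with both drugs it had 0.10 in Hep3B and -0.06 in Huh7 (edgeR FDR = 0.195 and 0.659). GAR1, a core protein of these particles, had 0.35 with both drugs in Hep3B in the authors' deposited table (edgeR FDR = 0.000805), and NHP2, another core protein, had -0.46 (edgeR FDR = 0.000609). NOLC1, a chaperone of small nucleolar particles, had -0.55 in Hep3B with sorafenib, -0.58 in Huh7 labelled GW3965 and -0.52 in Huh7 with both drugs in the authors' deposited tables.

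The multifunctional nucleolar proteins were called in both directions. NCL, an RNA-binding protein of ribosomal RNA transcription and early processing, was at 332 CPM with sorafenib in Hep3B against 590 CPM with DMSO, the lowest fold change of the members there (-0.83 in the authors' deposited table, edgeR FDR = 1.11e-13). With both drugs it was at 347 CPM in Hep3B against 588 CPM with DMSO (-0.76 in the authors' deposited table, edgeR FDR = 5.54e-14), and at 525 CPM in Huh7 against 676 CPM with DMSO (-0.37, edgeR FDR = 2.64e-06). NPM1, a chaperone of histones and ribosomal proteins, was called higher with both drugs in both lines. It was at 151 CPM with both drugs in Hep3B against 134 CPM with DMSO (0.18 in the authors' deposited table, edgeR FDR = 0.0405), and at 320 CPM with both drugs in Huh7 against 260 CPM with DMSO (0.30, edgeR FDR = 0.000667). Near-identical copies of NPM1 exist in the genome, so its values are uncertain.

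DDX21 had the highest fold change of these proteins with both drugs in Hep3B. It was at 194 CPM with both drugs in Hep3B against 112 CPM with DMSO (0.79 in the authors' deposited table, edgeR FDR = 1.76e-25), at 124 CPM with GW3965 against 106 CPM with DMSO (0.22, edgeR FDR = 0.0241), and at 118 CPM with sorafenib against 112 CPM with DMSO (0.08, edgeR FDR = 0.695). In Huh7 labelled GW3965 it was at 123 CPM against 174 CPM with DMSO (-0.50 in the authors' deposited table, edgeR FDR = 2.22e-07). LYAR, a nucleolar zinc finger protein, had -0.61 in Hep3B with sorafenib, -0.19 in Hep3B with both drugs, -0.75 in Huh7 labelled GW3965 and -0.62 in Huh7 with both drugs, all called in the authors' deposited tables. GNL3, the nucleolar GTPase nucleostemin, had -0.45 with sorafenib and 0.29 with both drugs in Hep3B, both called in the authors' deposited tables.

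Of the 3 RNA polymerase I subunits, 1 was called lower, 1 higher and 1 was not called with both drugs in Hep3B. The background there was 35.4% lower and 36.7% higher. POLR1A, the largest subunit, was at 42.2 CPM with both drugs in Hep3B against 59.6 CPM with DMSO (-0.50 in the authors' deposited table, edgeR FDR = 0.0057), while POLR1B, the other catalytic subunit, was at 51.5 CPM against 38.1 CPM with DMSO (0.44, edgeR FDR = 2.01e-06). All 3 were called lower in Huh7 labelled GW3965, from -0.37 for POLR1A to -0.31 for POLR1B in the authors' deposited table. The edgeR FDR there was 0.0281 for POLR1A and 0.0495 for POLR1C, both near the threshold. Of all genes at 2 CPM or more, 17.8% were called lower there. POLR1C, a subunit shared with RNA polymerase III, had 0.05 in Hep3B and -0.01 in Huh7 with both drugs, neither called in the authors' deposited tables.

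Of the 11 factors of small subunit maturation, 7 were called higher and 3 lower with both drugs in Hep3B, 4 were called lower with sorafenib alone, and 10 were called lower in Huh7 labelled GW3965. With both drugs in Hep3B these are 63.6% higher and 27.3% lower of 11 genes, beside 36.7% and 35.4% of all genes at 2 CPM or more. The lower shares were 36.4% with sorafenib in Hep3B, beside 27.9% of all genes, and 90.9% in Huh7 labelled GW3965, beside 17.8%. The members called higher with both drugs were NOC4L, RRP9, DDX10, RRP12 and the UtpA proteins UTP15, WDR43 and WDR75, which bind the nascent precursor first. UTP15 was at 19.0 CPM with both drugs in Hep3B against 11.5 CPM with DMSO (0.72 in the authors' deposited table, edgeR FDR = 5.74e-20). RRP12, a factor of subunit export, was at 38.2 CPM against 24.1 CPM with DMSO (0.67 in the authors' deposited table, edgeR FDR = 2e-10). DDX10, a DEAD-box helicase, had 0.47 in the authors' deposited table, and RRP9, a protein of the U3 particle, had 0.37, as did WDR43 and WDR75.

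UTP20, NOP14 and DDX52 were the small subunit factors called lower with both drugs in Hep3B. UTP20 was at 27.1 CPM with both drugs in Hep3B against 45.9 CPM with DMSO (-0.76 in the authors' deposited table, edgeR FDR = 7.17e-07), and at 61.8 CPM with both drugs in Huh7 against 87.8 CPM with DMSO (-0.51, edgeR FDR = 1.01e-08). It had -0.74 in Hep3B with sorafenib and -0.75 in Huh7 labelled GW3965 in the authors' deposited tables. DDX52, a DEAD-box helicase, had -0.31 in Hep3B and -0.39 in Huh7 with both drugs in the authors' deposited tables. NOP14, a partner of NOC4L, had -0.63 with sorafenib and -0.26 with both drugs in Hep3B, and TSR1, a late assembly factor, had -0.32 and 0.15, the last not called in the authors' deposited table (edgeR FDR = 0.0605).

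Of the 16 factors of large subunit maturation, 12 were called lower in Hep3B with sorafenib, 15 in Huh7 labelled GW3965 and 6 in Huh7 with both drugs. These are 75%, 93.75% and 37.5%, beside 27.9%, 17.8% and 26.1% of all genes at 2 CPM or more. With both drugs in Hep3B 4 were called higher (PES1, NOC3L, WDR74 and GNL2) and 3 lower, 25.0% and 18.8% beside 36.7% and 35.4% of all genes at 2 CPM or more. WDR74 was the member called higher with sorafenib in Hep3B, at 40.2 CPM with sorafenib in Hep3B against 30.8 CPM with DMSO (0.39 in the authors' deposited table, edgeR FDR = 0.00169) and at 60.4 CPM with both drugs against 30.8 CPM with DMSO (0.97, edgeR FDR = 5.99e-26). In Huh7 it was at 38.8 CPM with both drugs against 31.7 CPM with DMSO (0.29 in the authors' deposited table, edgeR FDR = 0.0168), and in Huh7 labelled GW3965 it was called lower (-0.24, edgeR FDR = 0.0368). An exon of WDR74 overlaps the gene of a U2 snRNA copy, RNU2-2P, on the same strand, so reads of both could be counted together. GNL2, a GTPase whose yeast counterpart acts in subunit export, had -0.29 with sorafenib and 0.63 with both drugs in Hep3B in the authors' deposited tables (edgeR FDR = 0.00695 and 2.89e-15).

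The members of the PeBoW complex, which acts in processing of the large subunit RNAs, differed in their calls in Hep3B. With both drugs PES1 had 0.38 (edgeR FDR = 2.1e-06), BOP1 had 0.09 (edgeR FDR = 0.599) and WDR12 had 0.07 (edgeR FDR = 0.457) in the authors' deposited table. All 3 were called lower in Huh7 labelled GW3965, with PES1 at -0.37, BOP1 at -0.67 and WDR12 at -0.31 in the authors' deposited table. NOP2, a methyltransferase of the large subunit RNA, was at 49.2 CPM with GW3965 in Hep3B against 41.3 CPM with DMSO (0.25 in the authors' deposited table, edgeR FDR = 0.000703), and at 32.2 CPM with sorafenib against 43.8 CPM with DMSO (-0.44, edgeR FDR = 0.000456).

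NOP16, a nucleolar protein of large subunit assembly, had the lowest fold change of the members in Huh7 labelled GW3965, at 9.04 CPM against 15.3 CPM with DMSO (-0.76 in the authors' deposited table, edgeR FDR = 4.17e-07). RRS1, which helps bring in the 5S particle, was at 34.0 CPM in Huh7 labelled GW3965 against 52.9 CPM with DMSO (-0.64 in the authors' deposited table, edgeR FDR = 3.35e-10), and had -0.36 with both drugs. NOC2L, MRTO4 and RRP1 were the large subunit factors called lower with both drugs in Hep3B, at -0.20, -0.28 and -0.25 in the authors' deposited table. DDX18, BRIX1 and NOP16 were called lower in Huh7 with both drugs, at -0.21, -0.42 and -0.47 in the authors' deposited table, and none of them was called with both drugs in Hep3B, where they had -0.05, -0.01 and 0.20. NOC3L had 0.28 with both drugs in Hep3B and was called, while PPAN had -0.12 and DDX56 -0.09 and were not called in the authors' deposited table.

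Per length of the representative transcript, known for 41 of the 42 members, NCL, FBL and NPM1 had the highest levels with DMSO in Hep3B, at 146, 112 and 108 CPM per kb, and UTP15 had the lowest, at 3.12 CPM per kb. With both drugs in Hep3B NPM1 was at 122, FBL at 91.0 and NCL at 86.0 CPM per kb. These levels have no error of their own.

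Adding GW3965 to sorafenib in Hep3B raised most members relative to sorafenib alone. The 2 fold changes share the DMSO group, which cancels in their difference, and an approximate test of the difference was built from the deposited p-values, with adjustment over all genes at 2 CPM or more. By this test 25 of 42 members were higher with both drugs than with sorafenib and 0 were lower (adjusted p under 0.05), against a background of 16.6% higher and 14.5% lower. The median difference of the members was 0.39 (log2) and that of all genes 0.04. GNL2 differed most, by 0.92 (approximate 95% interval 0.66 to 1.18, adjusted p = 5.59e-10, approximate normal test), followed by RRP12 (0.74, interval 0.46 to 1.03), GNL3 (0.74, interval 0.48 to 0.99) and DDX21 (0.72, interval 0.46 to 0.98).

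Of the 12 members called lower with both drugs in Hep3B, 10 did not pass the test of both drugs against sorafenib alone, and LYAR (0.41) and NOP14 (0.36) passed it as higher. The difference was 0.07 for NCL (interval -0.22 to 0.35), -0.02 for UTP20 (interval -0.41 to 0.38), -0.04 for NOP56 (interval -0.29 to 0.22) and 0.05 for POLR1A (interval -0.39 to 0.48). These intervals also allow changes of the size seen for other members. Relative to GW3965 alone, 14 members were higher and 13 lower with both drugs in Hep3B, against a background of 30.7% higher and 33.2% lower, from -0.94 for UTP20 and -0.81 for NCL to 0.90 for WDR74.

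In Huh7, 21 of the 42 members were higher with both drugs than in the group labelled GW3965, 0 were lower and 21 did not pass the approximate test, against a background of 20.4% higher and 9.61% lower, and the median difference was 0.34 for the members and 0.11 for all genes. At an unadjusted p under 0.05 of the same test, 0 members were lower here and 0 in Hep3B with both drugs against sorafenib. WDR43 differed most (0.71, interval 0.46 to 0.96), followed by RRP12 (0.69, interval 0.41 to 0.97) and RRP9 (0.65, interval 0.36 to 0.93). Relative to Huh7 labelled sorafenib, 1 member was higher (NPM1, 0.30) and 12 were lower with both drugs, against a background of 29.1% higher and 18% lower, with NOP16 (-0.57), LYAR (-0.52) and NOLC1 (-0.49) the lowest.

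**Figure D3:**
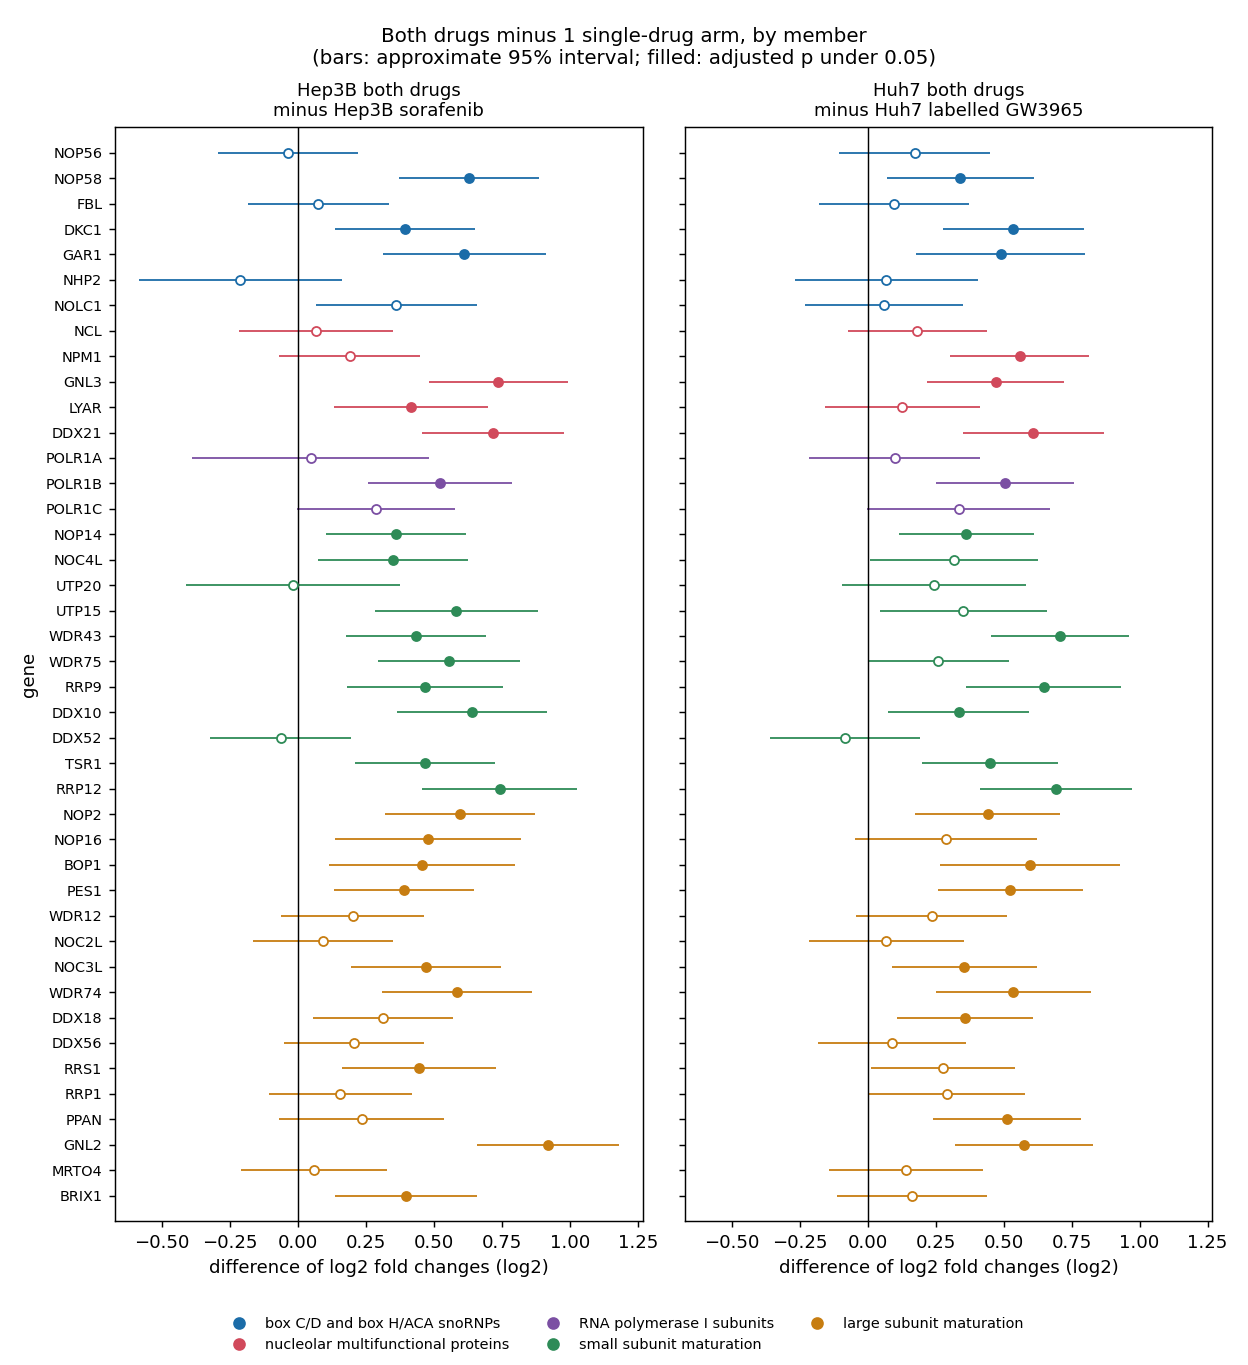
Difference of log2 fold changes for each member, Hep3B both drugs minus Hep3B sorafenib (left) and Huh7 both drugs minus Huh7 labelled GW3965 (right), with approximate 95% intervals (bars) and filled points at adjusted p under 0.05, coloured by role. Filled points, 25 on the left and 21 on the right, all lie above 0, and NCL, UTP20, NOP56 and POLR1A are open in both panels.

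The response to both drugs differed between the lines, with members higher in Hep3B more often than lower. The DMSO groups of the 2 lines are separate. By the approximate test 17 members had a higher fold change in Hep3B than in Huh7 and NCL alone had a lower one, against a background of 17.7% higher and 26.3% lower. UTP15 differed most, by 0.77 (interval 0.49 to 1.06, adjusted p = 1.28e-06, approximate normal test), followed by DDX21 (0.68), WDR74 (0.68), NOP16 (0.68) and RRP12 (0.62). NCL differed by -0.40 (interval -0.65 to -0.15).

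Calls shared by the lines were counted in pairs of groups with separate DMSO libraries. With both drugs, 10 members were called lower in both lines (NOP56, FBL, NHP2, NCL, LYAR, POLR1A, UTP20, DDX52, NOC2L and MRTO4), against 18.4% of all genes. Called higher in both lines were 3 members (NPM1, WDR43 and WDR74), against 23.4% of all genes, and NOP58 was higher in Hep3B and lower in Huh7, as 1.74% of all genes were. For Hep3B sorafenib and Huh7 labelled GW3965, 26 members were called lower in both, against 10.6% of all genes, and WDR74 was higher in Hep3B and lower in Huh7, as 0.688% of genes were. Across the 42 members Spearman's rho between the fold changes of the lines was 0.69 with both drugs and 0.47 between Hep3B sorafenib and Huh7 labelled GW3965, and over all genes at 2 CPM or more it was 0.63 and 0.55. These are descriptions across genes, which share their libraries.

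The response of some members also differed between Hep3B with sorafenib and Huh7 labelled GW3965. By the approximate test 7 members had a higher fold change in Hep3B with sorafenib (WDR74, RRP9, RRP12, DDX21, UTP15, NOP16 and WDR43, by 0.43 to 0.63) and 0 a lower one, against a background of 9.64% higher and 9.72% lower. Of these, NOP16 alone was called lower than DMSO in Hep3B with sorafenib, WDR74 was called higher, and the others were not called. Between Hep3B with GW3965 and Huh7 labelled sorafenib, 1 member was higher (UTP15, 0.43) and 0 lower, against a background of 1.51% higher and 0.22% lower. In both of these pairs 0 members were lower at an unadjusted p under 0.05 of this test.

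**Figure D4:**
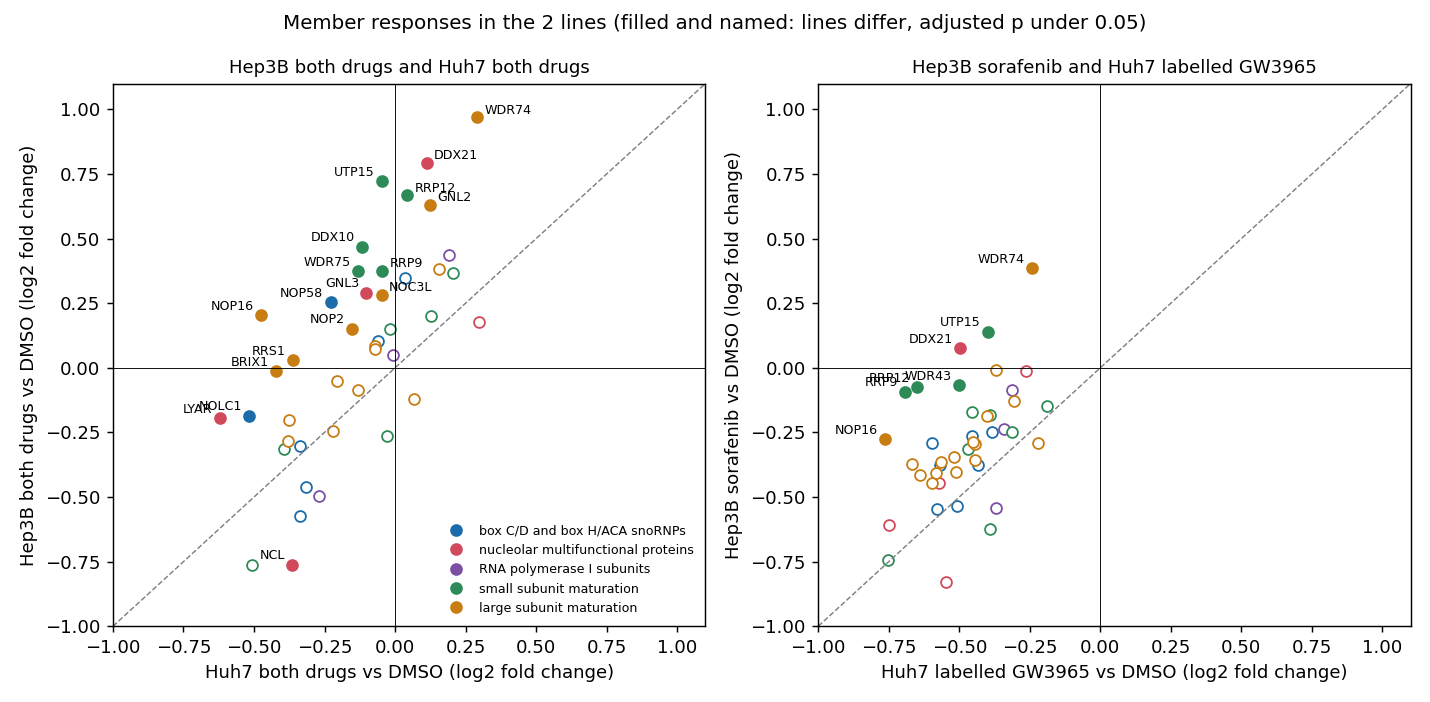
Log2 fold change of each member in Hep3B (vertical axis) against that in Huh7 (horizontal axis), with both drugs (left) and for Hep3B sorafenib and Huh7 labelled GW3965 (right), coloured by role, with the dashed line of equal change. Filled and named members differ between lines at adjusted p under 0.05, 18 on the left and 7 on the right, and all of them except NCL lie above the line.

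Other factors of the same pathway, 115 genes outside the members, were also mostly called lower in Huh7 labelled GW3965. They include PPAN-P2RY11, the read-through of the member PPAN, so reads of both could be counted together. In Huh7 labelled GW3965, 83 of the 115 were called lower and 1 higher in the authors' deposited table. These are 72.2% and 0.87%, beside 17.8% and 13.6% of all genes at 2 CPM or more. In Hep3B with sorafenib 55 were called lower and 9 higher in the authors' deposited table. These are 47.8% and 7.83%, beside 27.9% and 23.6% of all genes at 2 CPM or more. With both drugs 35 were lower and 49 higher in Hep3B (30.4% and 42.6%), near the 35.4% and 36.7% of all genes at 2 CPM or more, and 42 were lower and 18 higher in Huh7 (36.5% and 15.7%), against 26.1% and 35.5% of all genes. Among the RNA polymerase I genes of these lists, TAF1D, a subunit of the promoter selectivity factor, had 2.29 in Hep3B and 1.41 in Huh7 with both drugs in the authors' deposited tables (edgeR FDR = 6.25e-41 and 1.07e-31). UBTF, the factor that opens ribosomal DNA for transcription, had -0.89 and -0.25 (edgeR FDR = 2.16e-15 and 0.0221).

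Few genes of the ribosomal proteins themselves were called lower. Of 80 cytosolic ribosomal protein genes, 29 were called higher and 1 lower in Hep3B with sorafenib, with a median of 0.27, and 2 higher and 1 lower in Huh7 labelled GW3965, with a median of -0.02, in the authors' deposited tables. The sorafenib counts in Hep3B are 36.25% higher and 1.25% lower, beside 23.6% and 27.9% of all genes at 2 CPM or more. Those of Huh7 labelled GW3965 are 2.5% and 1.25%, beside 13.6% and 17.8%. With both drugs 40 were higher and 5 lower in Hep3B (50% and 6.25%), and 38 higher and 4 lower in Huh7 (47.5% and 5%). The background with both drugs was 36.7% higher and 35.4% lower in Hep3B, and 35.5% and 26.1% in Huh7. Many ribosomal protein genes have near-identical pseudogenes, and their values are uncertain.

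MYC, a regulator of ribosome biogenesis genes, had 1.44 in Hep3B and 1.71 in Huh7 with both drugs in the authors' deposited tables (edgeR FDR = 8.26e-35 and 6.83e-44). It had 0.16 in Hep3B with sorafenib and -0.20 in Huh7 labelled GW3965 (edgeR FDR = 0.305 and 0.319), the groups in which most members were lower. Its relative MYCN had -2.11 in Hep3B with sorafenib, -1.25 in Huh7 labelled GW3965, -1.63 in Hep3B with both drugs and -2.50 in Huh7 with both drugs, all called in the authors' deposited tables. In the other groups MYCN was called higher in Hep3B with GW3965 (0.82, edgeR FDR = 4.56e-15) and MYC was called higher in Huh7 labelled sorafenib (0.33, edgeR FDR = 0.000749) in the authors' deposited tables. The 2 genes were at unlike levels in Hep3B, with mean log2 CPM of 2.65 for MYCN and 6.59 for MYC in the GW3965 comparison. In the Huh7 labelled GW3965 comparison these means were 4.79 for MYCN and 5.57 for MYC. MXD4, a repressor that competes with MYC for its partner, had -1.62 in Hep3B and 0.10 in Huh7 with both drugs, and MXI1, of the same family, had 0.94 and 0.66 in the authors' deposited tables. The part of these genes in the members' values was not tested.

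Transcript length and base composition moved with the members' small fold changes in 2 groups. Across 41 members Spearman's rho of fold change with length was 0.50 in Hep3B with GW3965, and 0.25 over 10995 genes at 2 CPM or more. With GC content it was 0.64 in Huh7 labelled sorafenib, and 0.39 over 10986 genes. In the other comparisons rho of the members lay between -0.23 and 0.01 for length and GC content. In Hep3B with GW3965 3 members were called, and in Huh7 labelled sorafenib 0. The part of length and base composition in these fold changes was not tested.

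Exons of some members overlap those of other genes, and the sources used here do not say whether counting used strand. On the opposite strand TSR1 overlaps SRR, BRIX1 overlaps RAD1, NHP2 overlaps RMND5B, NOC2L overlaps SAMD11, PES1 overlaps TCN2 and UTP15 overlaps ANKRA2. NOP16 overlaps ARL10 and HIGD2A there, and POLR1C overlaps XPO5, YIPF3 and LRRC73. DDX52, POLR1C, RRP12, WDR74 and NOP14 overlap antisense genes, and WDR12 overlaps a pseudogene. GNL2, GNL3 and MRTO4 have shorter overlaps on that strand. On the same strand PPAN overlaps its read-through with P2RY11. NOP2, RRS1 and WDR74 each overlap another protein-coding gene on the same strand, by up to 757, 194 and 237 bases. Exons of NOP56, NOP58, DKC1 and GNL3 overlap genes of small nucleolar RNAs on the same strand. NOP56 and PES1 are represented by noncoding RefSeq transcripts (NR_027700 and NR_036550) of genes that also have coding ones. The values of these members are uncertain to that extent.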

How the data were processed

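RNA-seq of 70 poly-A libraries of Hep3B and Huh7 cells was compared by the authors in edgeR, each drug group with DMSO in its own line, which gave 6 deposited tables. Per the file headers, the authors listed 32321 transcripts by mean log2 CPM, log2 fold change, p-value and FDR, with a flag for the representative transcript. A score column, per the file headers, gives how many libraries had a nonzero count. Per the submitters' processing notes the authors used edgeR with hg19 or GRCh37. The aligner, the counter and the normalization are not given in any source used here. Depth per library is unknown. The 42 members and all lists were chosen with earlier results of these data known, and every member may be named, with full values for 12 of them and for the extremes of each comparison.

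A gene was called at the authors' FDR under 0.05 on its representative transcript, adjusted over all 32321 rows. The fold change was read as drug over DMSO: the DMSO level implied by the authors' mean log2 CPM and fold change then differed between tables of a line by an SD of 0.0038 to 0.0144 (log2), against 0.337 to 0.694 for the reverse. Group levels in CPM were computed from these deposited columns and the group sizes. The DMSO level of Hep3B implied by the sorafenib and both-drugs comparisons exceeded that implied by the GW3965 comparison, by medians of 0.080 and 0.077 (log2). In Huh7 the medians between comparisons lay from -0.045 to -0.011. Levels in CPM are therefore on 1 scale within a comparison but not between comparisons. Differences of fold changes were tested approximately. The standard error was the size of the fold change over the normal score of its p-value, with the median of 20 expression bins as a lower limit and as its value where p exceeded 0.5. The 2-sided normal p-values were adjusted by Benjamini-Hochberg over genes at a mean of 2 CPM or more. Within a line the shared DMSO libraries are counted in both errors, which makes the test conservative. The test was run on simulated normal data with 9 libraries in every group and p-values of t-tests. That setting differs from the edgeR p-values and the Huh7 group sizes here, so it does not show how the test behaves on these data. Promoter windows came from RefSeq (GRCh38.p14), and lengths and overlaps from GENCODE 29. Python 3.11.15, pandas 2.3.3, numpy 2.4.6, scipy 1.17.1 and matplotlib 3.10.9 were used.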

Additional observations from a re-analysis of the deposited data

Results flagged for a closer look

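Each result here is a member whose fold change differed between the 2 lines by the approximate test of the difference (adjusted p under 0.05), given as Hep3B minus Huh7 on the log2 scale.

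With both drugs the difference was 0.77 for UTP15, 0.68 for DDX21, 0.68 for WDR74, 0.68 for NOP16, 0.62 for RRP12, 0.59 for DDX10, 0.51 for GNL2 and 0.51 for WDR75. It was 0.48 for NOP58, 0.43 for LYAR, 0.42 for RRP9, 0.41 for BRIX1, 0.39 for GNL3, 0.39 for RRS1, 0.33 for NOLC1, 0.33 for NOC3L and 0.30 for NOP2. NCL was the member with a lower fold change in Hep3B, by -0.40.

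Between Hep3B with sorafenib and Huh7 labelled GW3965 the difference was 0.63 for WDR74, 0.60 for RRP9, 0.58 for RRP12, 0.57 for DDX21, 0.54 for UTP15, 0.49 for NOP16 and 0.43 for WDR43. Between Hep3B with GW3965 and Huh7 labelled sorafenib it was 0.43 for UTP15. The 2 last pairs set groups with different labels against each other, and the part of the labels in these differences was not tested.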

How the results depend on the processing

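No paired analysis was possible because the tables hold no values of single libraries, and leaving out a library could not be run for the same reason. Of 252 member values, 233 stayed on their side of the threshold at an FDR of 0.01 and 19 did not, while 8 more passed when p-values were adjusted over representative transcripts at 2 CPM or more. Centring on the median of expressed genes kept the authors' FDR, so it could alter a call only by turning its sign, and it turned 0. Taking the transcript with the highest mean changed 0 calls, and how often that was the representative transcript itself was not counted. In these settings 0 results reversed. Members called higher in Hep3B with GW3965 (3) numbered 1 at an FDR of 0.01 and 6 when adjusted over representative transcripts at 2 CPM or more. At 0.01, members higher with both drugs than with sorafenib in Hep3B (25) numbered 16, and members lower with both drugs than with GW3965 (13) numbered 7. At the same threshold 0 members were higher in Huh7 with both drugs than labelled sorafenib (1), and 0 in Hep3B GW3965 against Huh7 labelled sorafenib (1). Without the lower limit on the standard error these were 3 members for Huh7 both drugs against labelled sorafenib, and 2 instead of 1 for members with a lower response to both drugs in Hep3B than in Huh7. The median over all genes with both drugs in Huh7 was 0.16 (0.07 at 2 CPM or more). Depth was not known, so its limits could not be examined.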
